A study of Mus musculus with 7 samples.

Results

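Binding of the vitamin D receptor (VDR) was examined at 8843 regions of the mouse genome that had a VDR peak in all 3 libraries from mice given 1,25(OH)2D3 and in 1 or 2 of the 3 libraries from mice given vehicle. They were chosen by the presence of peaks alone, after merging the deposited peaks of the 6 libraries on chromosomes 1 to 19 and X wherever they overlapped by at least 1 bp. They made up 10.2% of the 86995 merged regions and 49.5% of the 17875 regions present in all 3 hormone libraries. The remaining regions of that set were 4687 with no vehicle peak, called hormone-only, and 4345 with a peak in every vehicle library, called constitutive.

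The hormone libraries came from wild-type mice on a chow diet, aged 8 weeks, given 1,25(OH)2D3 at 10 ng per g body weight, the hormonal form of vitamin D (3 libraries). The vehicle libraries came from mice of the same kind given vehicle in its place (3 libraries). Duodenum and jejunum were taken after 1 h, epithelial cells were shed with EDTA, and their chromatin was immunoprecipitated with an antibody against VDR and sequenced (ChIP-seq). The labels list 1 input library, which carries the hormone dose, and do not state if the libraries of a group were made from separate mice. No RNA data were used here, so the marker genes of the epithelium were available here as neighbours of peaks and not as expressed genes.

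VDR is a nuclear receptor of the intestinal epithelium, where it governs the uptake of dietary calcium. When it binds 1,25(OH)2D3 it pairs with a retinoid X receptor (RXR), and the pair settles on DNA at direct repeats of a short half-site with a spacer of 3 bases, called DR3 elements. Part of the receptor is also found on chromatin without the hormone.

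The DNA of the regions is shown first, because the DR3 is the element that the receptor pair is known to read. The DR3 was searched as a pair of half-sites, each a purine, G, G or T, T, C or G, and A, around a spacer of 3 bases. Of the 8843 regions, 267 (3.02%) held such a DR3 with 0 mismatches within 100 bp of their centre, against 0.26% of equally long windows 5 kb to the right. Of the 12 of these that stood highest in the hormone peak lists, by the rule in the methods, 11 are printed below, each on the strand of the element and named by the nearest protein-coding start, with the 15 bases of the element in capitals (mm9 throughout).
Edn3, chr2:174572778-174572806, plus strand: taagaggAGGTGACTGAGTTGAgtaccac
1110001J03Rik, chr6:38483754-38483782, plus strand: gtttgcaGGGTGAAGCGGTTGActcttgg
Snx10, chr6:51460829-51460857, plus strand: ctaagagAGTTCAAAGGGTTGAatgcagg
Ssbp3, chr4:106654540-106654568, plus strand: tggtgcaGGTTCATCAGGGTGAgatgcgg
Gdpd5, chr7:106551977-106552005, minus strand: aggccagGGTTGAACAAGTTCAtcaggag
Sfxn1, chr13:54175046-54175074, minus strand: actcccaAGTTCACTTGGGTCAgccatgg
Zpbp2, chr11:98425428-98425456, plus strand: cagggagGGGTGAATGAGGTGAcggtgtt
Arih1, chr9:59333775-59333803, minus strand: gtcaacgAGGTCATCCAGGTGAggggccc
Atp5e, chr2:174289209-174289237, plus strand: tctgcgcAGGTGAGCAAGGTCAgtgtcag
Phf20, chr2:156021974-156022002, plus strand: aaggcagAGGTGAGAAGGTTCAgatgagg
Stard13, chr5:152054297-152054325, plus strand: tagttggAGGTGAGTCGGGTGAggcagcg
The elements of all 12 lay from 1 to 77 bp from the centre of their region, 5 of them within 25 bp, and 8 were on the plus strand and 4 on the minus strand. Their half-sites differed from region to region. The Arih1 site paired AGGTCA with AGGTGA, the Atp5e site held the same pair in the opposite order, and the Snx10 site paired AGTTCA with GGTTGA. Arih1 encodes a ubiquitin ligase, Atp5e a subunit of the mitochondrial ATP synthase and Snx10 a sorting nexin of the endosomes.

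Of these 12 regions, that near Edn3, which encodes the peptide endothelin 3, stood highest. It lay 13.3 kb upstream of the Edn3 start, between genes, at list percentiles of 95.3, 97.8 and 98.5 in hormone replicates 1, 2 and 3 and of 81.8 in vehicle replicate 2. A list percentile is the position of a peak in the deposited list of its library, with 100 for the first peak and 0 for the last. What value ordered the lists is not given in the sources used here, so a percentile is a place in a list and not an occupancy. The region was absent from the other vehicle lists. The whole peak of hormone replicate 1 at this place, 285 bases, is shown because it carries the element in its context, again in capitals.
Edn3, chr2:174572704-174572988, plus strand: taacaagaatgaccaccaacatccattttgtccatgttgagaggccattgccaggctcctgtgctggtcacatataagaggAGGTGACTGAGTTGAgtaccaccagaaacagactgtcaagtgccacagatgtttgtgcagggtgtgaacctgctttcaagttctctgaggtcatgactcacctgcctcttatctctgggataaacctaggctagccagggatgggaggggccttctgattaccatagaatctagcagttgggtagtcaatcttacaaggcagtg
Besides its DR3, the Edn3 region held a GATA motif and an AP-1 motif within 100 bp of its centre. The peak held 1 DR3 at 0 mismatches or 1 mismatch.

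The regions were split unevenly over the vehicle libraries. Vehicle replicate 3 alone held 2874 of them (32.5%, 95% Wilson interval 31.5 to 33.5), and vehicle replicates 2 and 3 together held 2593 (29.3%, 28.4 to 30.3). Vehicle replicate 2 alone held 1503 (17.0%), replicates 1 and 3 held 835 (9.44%), replicates 1 and 2 held 559 (6.32%) and replicate 1 alone held 479 (5.42%). In all, 4856 regions (54.9%) were in 1 vehicle library and 3987 (45.1%) in 2. These intervals cover counting error only, and since the rule used the presence of peaks the counts are a description with no test.

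**Figure D1:**
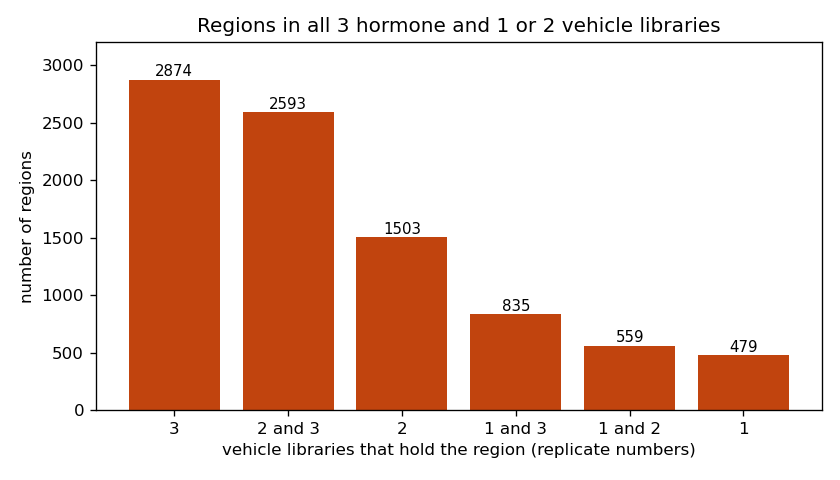
Number of regions (vertical axis) for each combination of vehicle libraries that held a peak there (horizontal axis, by replicate number), over the 8843 regions in all 3 hormone libraries and 1 or 2 vehicle libraries. The combinations with vehicle replicate 3 alone (2874) and with replicates 2 and 3 (2593) are the largest.

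The vehicle library with more peaks held more of the regions. Hormone replicates 1, 2 and 3 had 25510, 30390 and 41722 peaks, and vehicle replicates 1, 2 and 3 had 8756, 14888 and 48425. By the rule each hormone library held all 8843 regions, while vehicle replicates 1, 2 and 3 held 1873 (21.2%), 4655 (52.6%) and 6302 (71.3%). The third replicate was deepest in both groups, with 66524392 tags with hormone and 68560701 with vehicle, and the other libraries had 15991198 to 19733260. The share of tags inside peaks was 11.86, 15.89 and 18.96% in hormone replicates 1, 2 and 3, and 2.58, 4.81 and 8.10% in vehicle replicates 1, 2 and 3. The share of tags in peaks and the number of regions held thus had the same order across the vehicle libraries. Depth did not follow that order throughout, since vehicle replicate 1 had 19733260 tags and vehicle replicate 2 had 15991198. The part of depth and of the share of tags in peaks in the pattern was not tested. Without vehicle replicate 1 the rule gave 5771 regions, without vehicle replicate 3 it gave 5399, and with every list cut to the length of the shortest it gave 2799. With a vehicle library left out, a region needed a vehicle peak in exactly 1 of the other 2.

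In the hormone lists the regions stood between the hormone-only and the constitutive ones. Their mean list percentile over the 3 hormone libraries had a median of 65.4 (interquartile range 44.6 to 80.1), compared with 51.0 (31.9 to 68.9) for hormone-only regions and 89.1 (74.7 to 95.8) for constitutive ones. The median was 60.1 for regions in 1 vehicle library and 71.2 for those in 2. Regions that just missed the rule, with a peak in 2 of the 3 hormone libraries, had medians of 42.4 with 1 vehicle library and 49.6 with 2. For these regions the mean percentile was taken over the 2 hormone lists that held them. These positions come from the lists that chose the regions and are given with no test.

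By library, the median percentile of the regions was 60.4, 63.5 and 73.3 in hormone replicates 1, 2 and 3, and 42.3, 53.5 and 83.6 in vehicle replicates 1, 2 and 3 over those each one held. The long list of vehicle replicate 3 had the regions near its top, and the short list of vehicle replicate 1 had them near its middle. The regions filled 34.7, 29.1 and 21.2% of the hormone lists of replicates 1, 2 and 3, and 21.4, 31.3 and 13.02% of the vehicle lists of replicates 1, 2 and 3.

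**Figure D2:**
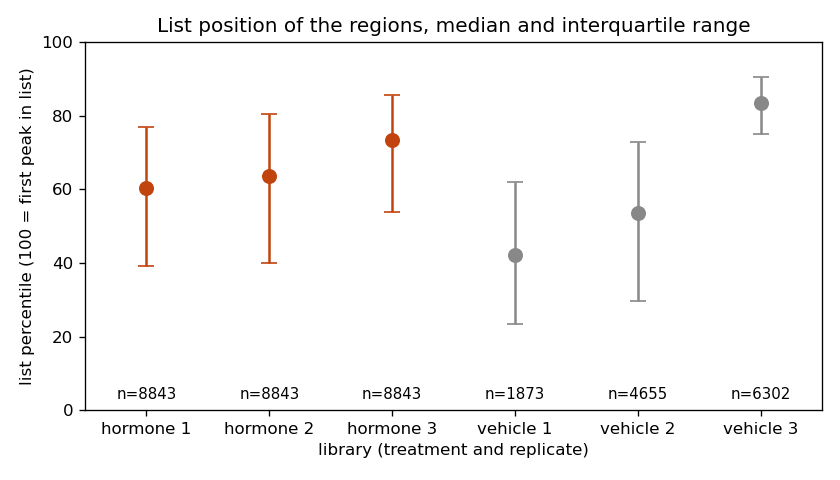
List percentile (vertical axis, 100 for the first peak of a list) of the regions in each library (horizontal axis), as the median with the interquartile range, over the number of regions printed below each point. The medians go from 60.4 to 73.3 in the hormone libraries and from 42.3 to 83.6 in the vehicle libraries.

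Several of the regions stood among the very first peaks of their lists. The highest lay between genes, 284 kb upstream of the start of Pxmp3, a peroxisome assembly factor (chr3:5860525-5860866). It was peak 33, 40 and 107 of the lists of hormone replicates 1, 2 and 3, and peak 3 and 29 of those of vehicle replicates 1 and 3. Vehicle replicate 2 had no peak there, although the region was near the head of every other list. It held no DR3 with fewer than 3 mismatches.

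Next in order came a region within Prr5, a subunit of the mTORC2 kinase complex, in an annotated UTR within 1 kb of an inner transcription start (chr15:84511373-84511691). It was followed by an intron of Elovl6, an enzyme that lengthens fatty acids (chr3:129294688-129295073), and by a region between genes 509 kb downstream of the start of Med13l, a subunit of the Mediator complex (chr5:119519888-119520273). The Prr5 and Elovl6 regions were in vehicle replicates 1 and 3, and the Med13l region in vehicle replicates 1 and 2. Their mean hormone percentiles were 99.7, 99.5 and 99.3. Of the 10 highest regions, those near Med13l and Cldn15 held a DR3 with 1 mismatch, and the closest match in the other 8 had 2 or 3.

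The fifth was the promoter of Cldn15, which encodes a claudin that forms cation pores between enterocytes. It was centred 371 bp upstream of the start (chr5:137441969-137442272), at percentiles of 99.3, 99.1 and 99.1 in hormone replicates 1, 2 and 3 and of 85.4 in vehicle replicate 2. The sixth was the promoter of Mt1, a metallothionein that buffers zinc, centred 90 bp upstream of its start (chr8:96702742-96703055). It stood at 98.6, 98.8 and 99.6 in hormone replicates 1, 2 and 3 and at 93.2 and 99.0 in vehicle replicates 2 and 3.

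The remaining regions of the first 10 had mean hormone percentiles of 98.7 to 98.9. One lay in an intron of Exoc6b, with Cyp26b1, which breaks down retinoic acid, as the nearest protein-coding start (chr6:84647565-84647979). A second was centred 139 bp upstream of Serinc3, a membrane protein of the serine incorporator family (chr2:163470839-163471178). The others were 33.4 kb upstream of Rybp, a Polycomb protein (chr6:100270615-100271031), and in an intron of Dpyd, which breaks down pyrimidines (chr3:118304591-118304913). The Cyp26b1 region was in vehicle replicate 3, the Serinc3 and Rybp regions in vehicle replicates 1 and 3, and the Dpyd region in vehicle replicates 1 and 2. Vehicle replicates 1, 2 and 3 held 7, 4 and 7 of the first 10.

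Among promoters, Tbrg4, which acts on mitochondrial RNA, completed the highest 5 with a region 126 bp downstream of its start (chr11:6525761-6526112). It stood at 97.2, 98.7 and 99.0 in hormone replicates 1, 2 and 3 and at 97.0 and 99.4 in vehicle replicates 2 and 3. At the other end, the lowest 3 regions were near Ube2e2 (chr14:20002704-20003213), in an intron of Abhd3 (chr18:10678151-10678699) and in an intron of Ifltd1 (chr6:145494644-145495005), at mean hormone percentiles of 3.86, 3.27 and 2.16. The Ifltd1 region stood at 1.92, 1.82 and 2.75 in hormone replicates 1, 2 and 3 and at 27.4 in vehicle replicate 3.

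Every region belongs to 1 vehicle combination by definition, and the leading regions of each combination follow. Vehicle replicate 1 alone held a region 17.0 kb upstream of Actb, the cytoskeletal actin (chr5:143685288-143685618), at 98.3, 98.6 and 97.6 in the hormone lists and 89.9 in its own. It also held an intron of Slc25a45, a mitochondrial carrier (chr19:5881110-5881402), and one of Fbln1, a matrix protein (chr15:85061360-85061685). Vehicle replicate 2 alone held, after Cldn15, an intron of the cold-sensing cation channel gene Trpm8 (chr1:90184666-90185050) at 97.1, 97.9 and 99.1 in the hormone lists and 98.9 in its own. Vehicle replicate 3 alone held, after the Cyp26b1 region, one 7.16 kb upstream of Gpr56, an adhesion receptor (chr8:97501186-97501498), and one 160 bp upstream of Ngef, a guanine nucleotide exchange factor (chr1:89470451-89470755). The leading region of replicates 1 and 2 after Med13l and Dpyd was near Gm13011 (chr4:136943787-136944253). Those of replicates 2 and 3 after Mt1 were near B4galt5, a galactosyltransferase (chr2:167209188-167209582), and Clec2d, a lectin-like ligand (chr6:129164487-129164801). The Trpm8 and Ngef regions thus stood near the top of 1 vehicle list, that at Ngef at 98.3, and were absent from both others.

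In the genome, most of the regions lay away from promoters. Their centres were in introns in 41.8% of cases (95% Wilson interval 40.8 to 42.8), between genes in 39.8% (38.7 to 40.8), within 1 kb of an annotated transcription start, counted as promoter, in 15.7% (14.99 to 16.5), and in exons in 2.70%. Their median distance from the nearest protein-coding start was 19.8 kb, against 17.7 kb for hormone-only and 21.0 kb for constitutive regions. The promoter share differed by -4.43 percentage points from the 20.2% of hormone-only regions (95% interval of the difference -5.82 to -3.07), and by 1.90 points from the 13.8% of constitutive regions (0.604 to 3.16). Regions are not replicates of a treatment, so no test was made between the classes. Over the 8 other settings of peak merging and library choice, the difference from hormone-only regions lay between -2.82 points, without vehicle replicate 2, and -12.5 points, with lists of equal length. The difference from constitutive regions was 0.63 points (-0.69 to 1.94) without vehicle replicate 2 and 0.98 (-0.38 to 2.33) without vehicle replicate 3, but 3.12 (1.87 to 4.39) without vehicle replicate 1 and 6.32 (4.25 to 8.38) with lists of equal length.

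The vehicle combinations differed in promoter share as well. It was 21.2% in the regions of vehicle replicates 1 and 3, 18.0% in those of replicate 3 alone, and between 13.2 and 14.6% in the other 4 combinations. It was also higher towards the top of the hormone lists, at 7.62, 7.91, 15.3 and 23.3% at mean percentiles of 0 to 25, 25 to 50, 50 to 75 and 75 to 100. Hormone-only regions had 6.66, 12.8, 25.3 and 36.9% over the same steps, and constitutive ones 9.09% (over 33 regions), 6.73, 10.5 and 15.3%.

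Over chromosomes, the share of all-hormone regions that belonged to this class went from 45.3% on chromosome 5 to 53.0% on chromosome 14. Chromosome X held 168 of them. The regions often lay near each other, since 24.4% had another of the same class within 10 kb, while 13.6% had a constitutive and 12.6% a hormone-only region that close. The 3 classes differ in number, so these shares show no preference.

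DR3 elements with at most 1 mismatch were found within 100 bp of the centre at 1710 of the 8843 regions (19.3%, 95% Wilson interval 18.5 to 20.2), against 4.38% of the windows 5 kb away. The share was 20.7% in hormone-only and 28.5% in constitutive regions, with 4.22 and 4.72% in their own windows. The difference from constitutive regions was -9.18 points (95% interval -10.8 to -7.61), and it lay between -4.99 and -11.8 points in all 8 other settings of the peak merging and library choice. The difference from hormone-only regions was -1.36 points (-2.79 to 0.052), and between -2.21 and 0.19 points in the other settings, so the direction was not fixed. Its interval lay below 0 without vehicle replicate 3 (-3.59 to -0.817) and with peaks joined only when centres lay within 100 bp (-3.37 to -0.257), and included 0 in the others. With 0 mismatches the shares were 3.02, 3.07 and 5.94% in the studied, hormone-only and constitutive regions, and with at most 2 mismatches they were 62.6, 63.6 and 71.5%.

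The number of vehicle libraries, 1 or 2, made little difference to the DR3 share, at 19.6% (18.5 to 20.8) and 18.99% (17.8 to 20.2). The combination of libraries made more. Regions of vehicle replicate 1 alone had 23.2% (19.6 to 27.2), those of replicates 1 and 3 had 22.9% and those of replicate 3 alone had 21.1%, compared with 18.2% for replicates 1 and 2, 17.9% for replicates 2 and 3 and 15.6% for replicate 2 alone. The lower values belonged to combinations with replicate 2.

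The DR3 share was lower in the upper than in the lower part of the hormone lists among these regions, and higher among constitutive ones. At mean hormone percentiles of 0 to 25, 25 to 50, 50 to 75 and 75 to 100, the studied regions had 27.9, 22.2, 16.8 and 18.2% (of 630, 2073, 3141 and 2999 regions). Hormone-only regions had 33.4, 23.97, 13.7 and 16.7%, and constitutive ones 12.1, 19.9, 23.3 and 30.7%, the first of these over only 33 regions. At percentiles of 75 to 100, 18.2% (95% Wilson interval 16.9 to 19.6) of the studied regions held a DR3, and 30.7% (29.2 to 32.3) of the constitutive ones. Over the single lists, the peaks at percentiles of 0 to 25 had the highest share in each library, with 25.1, 28.9 and 26.3% in hormone replicates 1, 2 and 3 and 29.9, 26.3 and 53.6% (of 56 regions) in vehicle replicates 1, 2 and 3. In the studied and hormone-only regions the promoter share, given above, was highest in the top step and lowest in the bottom one. In constitutive regions the top step had the highest share of both DR3 elements and promoters. The part of the promoter share in these orders was not tested.

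**Figure D3:**
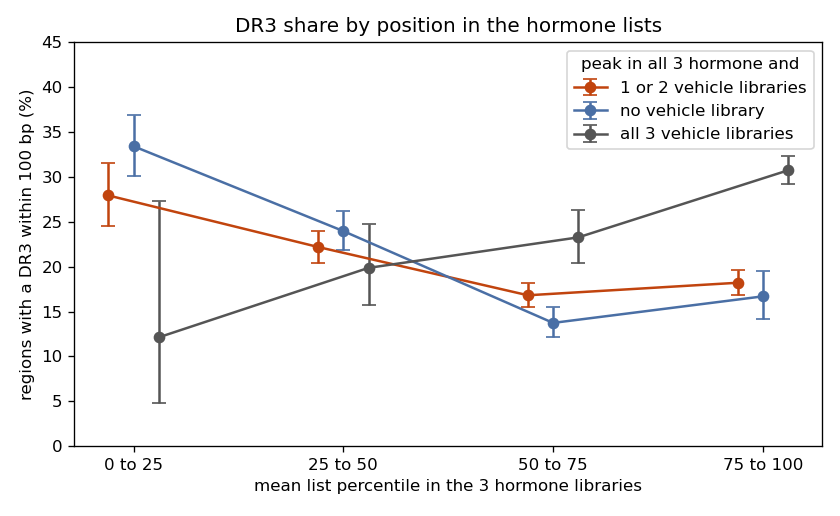
Share of regions with a DR3 of at most 1 mismatch within 100 bp of the centre (vertical axis, %, with 95% Wilson intervals) by step of the mean list percentile in the 3 hormone libraries (horizontal axis), for regions with a peak in 1 or 2, in no and in all 3 vehicle libraries. The studied regions go from 27.9% in the lowest step to 18.2% in the highest, and the constitutive ones from 12.1 to 30.7%.

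Most DR3 elements of the regions lay close to the centre. Their density was 38.8 and 35.2 per 1000 regions in the 20 bp steps on either side of the centre, and 18.4 and 18.1 at 40 to 60 bp on the left and right. In constitutive regions it was 58.9 and 74.3 on either side of the centre and 25.5 and 26.5 at 40 to 60 bp. In hormone-only regions it was 36.7 and 34.1, and 21.8 and 25.4. The hormone peak centres of a region spread over a median of 68 bp here, 78 bp in hormone-only and 45 bp in constitutive regions, and the part of that spread in these densities was not tested.

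**Figure D4:**
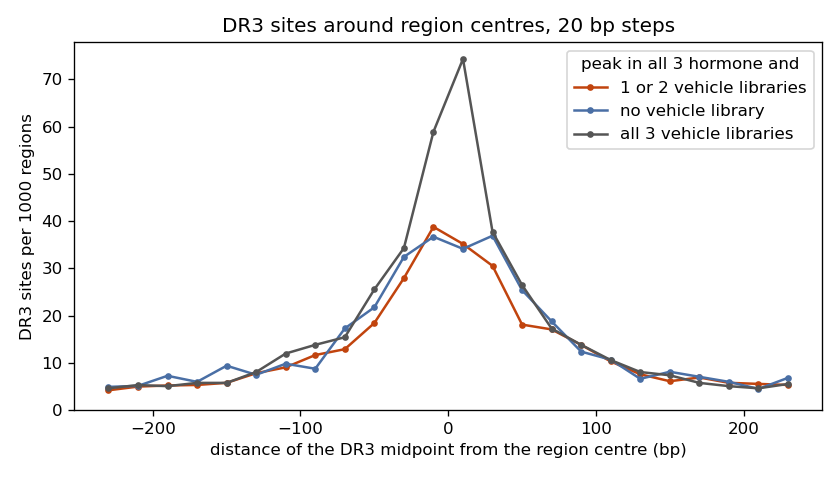
DR3 sites with at most 1 mismatch per 1000 regions (vertical axis) by distance of the element's midpoint from the region centre (horizontal axis, bp, in steps of 20 bp), for regions in 1 or 2, no and all 3 vehicle libraries. The studied and hormone-only regions reach below 40 sites per 1000 at the centre, and constitutive regions reach 74.3.

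The distance of peak centres from the DR3 did not separate the groups of libraries. Over 2135 regions with exactly 1 DR3 in the region extended by 100 bp, the median distance was 62, 65 and 61 bp in hormone replicates 1, 2 and 3, and 60, 80 and 76 bp in vehicle replicates 1, 2 and 3. The groups overlapped, because vehicle replicate 1 had the shortest distance of the 6. The means were 62.7 ± 2.08 bp with hormone and 72.0 ± 10.6 bp with vehicle (SD, n = 3 each), a difference of -9.33 bp (exact two-sided permutation p = 0.4, where 3 against 3 cannot go below 0.1). Each hormone value rests on all 2135 regions. The vehicle values rest on the 476, 1058 and 1549 of them that vehicle replicates 1, 2 and 3 held, so the groups were compared over unlike sets of regions. Peak widths were 285, 288 and 283 bp in hormone replicates 1, 2 and 3 and 255, 261 and 280 bp in vehicle replicates 1, 2 and 3. The difference was -17.3 bp without vehicle replicate 1 (exact permutation p = 0.1, the lowest value for 3 libraries against 2) and -5.17 bp without vehicle replicate 3 (exact permutation p = 0.7).

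The half-sites of the 1710 elements were read from the best match in each region, on its own strand. The 5′ half-site was AGGTCA in 17.1% (95% Wilson interval 15.4 to 18.99), GGGTCA in 10.9%, AGTTCA in 10.2% and GGTTCA in 7.72%. The 3′ half-site was AGTTCA in 15.3% (13.7 to 17.1), AGGTCA in 12.2% (10.8 to 13.9) and GGTTCA in 10.8% (9.38 to 12.3). In the 1239 elements of constitutive regions the 3′ half-site was GGTTCA in 17.6% (15.6 to 19.8), AGTTCA in 16.4% and AGGTCA in 8.80% (7.34 to 10.5). In the 970 of hormone-only regions the values were 9.48% for GGTTCA, 12.5% for AGTTCA and 12.1% for AGGTCA. A 3′ GGTTCA was thus less frequent in the studied than in the constitutive regions by more than both intervals, and no test was made.

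Motifs of other factors of the intestinal epithelium were present at many of the regions. A GATA motif (AGATAA, 0 mismatches), read by factors that specify the proximal intestine, was within 100 bp of the centre in 22.8% (95% Wilson interval 21.96 to 23.7), against 11.3% of windows 5 kb away. This was 5.75 points above hormone-only regions, which had 17.1% (95% interval of the difference 4.35 to 7.13). Over the other settings of merging and libraries that difference was 4.04 to 6.52 points. The difference from constitutive regions, which had 25.6%, was -2.75 points (-4.32 to -1.20), and -0.93 points without vehicle replicate 2 (-2.49 to 0.62). By vehicle combination the GATA share was lowest for replicate 1 alone, at 18.2% (14.97 to 21.9), and highest for replicates 2 and 3, at 26.5% (24.8 to 28.2).

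The AP-1 motif (TGANTCA), read by Fos and Jun proteins, was present in 13.6% of the regions, 11.4% of hormone-only and 13.8% of constitutive ones, with 5.496% in the regions' own windows. The AP-1 difference from constitutive regions was -0.14 points (-1.40 to 1.10), but 1.66 points (0.432 to 2.84) without hormone replicate 1. A DR1, the repeat with 1 spacer base read by HNF4 and RXR pairs (AGGTCA repeated after 1 base, at most 2 mismatches), was present in 11.3, 9.54 and 11.4% of the same classes, with 3.00% in windows. Both a DR1 and a DR3 were present at 2.23% of the regions, where the motifs may share a half-site. At least 1 of DR3, DR1, GATA and AP-1 was found at 53.2% (52.2 to 54.2), against 47.5% of hormone-only and 60.6% of constitutive regions and 22.1% of windows. The remaining 46.8% of the regions held none of the 4 at these settings within these windows, which says nothing of binding by their factors.

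**Figure D5:**
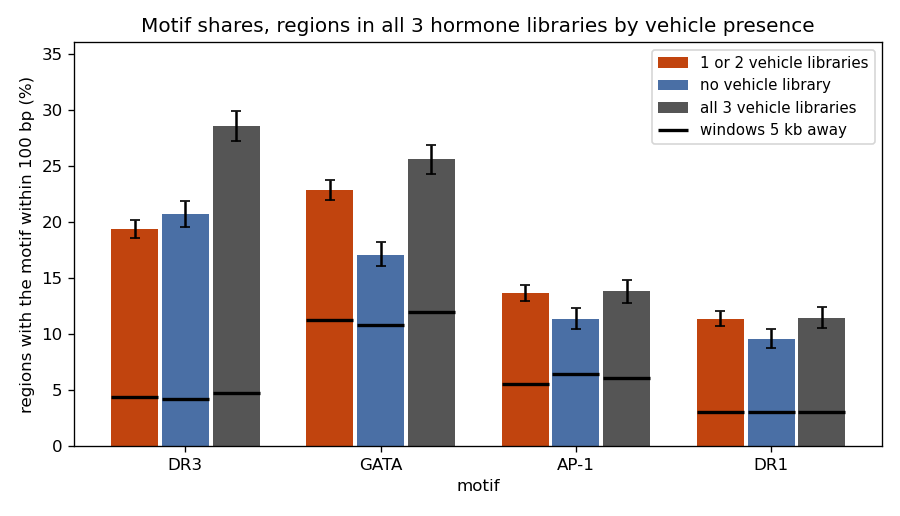
Share of regions (vertical axis, %, with 95% Wilson intervals) that hold each motif (horizontal axis) within 100 bp of the centre, for regions in all 3 hormone libraries and in 1 or 2, no or all 3 vehicle libraries; black lines give the share in windows 5 kb away. The studied regions have 19.3% for DR3 against 28.5% in constitutive regions, and 22.8% for GATA against 17.1% in hormone-only regions.

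A further 7 motifs and the half-site itself were searched on both strands in the same windows. The half-site AGGTCA was at 33.3% of the regions (12.8% of windows), KLF (GGGNGGGG) at 10.4% (8.12%), C/EBP (TTGCNNAA) at 8.78% (7.93%), CDX (CCATAAA) at 4.64% (2.87%) and the E-box (CACGTG) at 4.37% (2.37%). FOX (TGTTTAC) was at 3.51% (2.50%), HNF1 (GTTAAT and ATTAAC around 1 base, at most 2 mismatches) at 2.70% (0.916%) and CTCF (CCA, AG and GGC with 2 bases in each gap) at 1.88% (1.74%). C/EBP and CTCF were within 1 percentage point of their windows.

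Motifs were divided unevenly between promoters and the rest. At the 1391 promoter regions, DR3 was present in 17.0% (95% Wilson interval 15.1 to 19.03), GATA in 10.9% (9.39 to 12.7), AP-1 in 6.76% and DR1 in 7.12%. At the 3697 intron regions the shares were 20.1, 24.9, 14.6 and 13.1% for DR3, GATA, AP-1 and DR1, and at the 3516 between genes they were 19.5, 25.9, 15.7 and 10.9%. The DR3 share thus lay between 17.0 and 20.1% in these 3 locations, and the GATA and AP-1 shares were lower at promoters by more than both intervals.

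Of the 22350 protein-coding genes, 46.1% had at least 1 of the regions within 50 kb of the gene body, and 61.2% had at least 1 region of any class found in all 3 hormone libraries. The mean was 0.886 regions per gene. A region within 50 kb of several genes was counted at each of them, here and in the lists, so neighbouring genes can share regions. The regions had 5360 different genes as their nearest protein-coding start, and 3193 genes had regions of this class within 50 kb and none of either other class. The counts for gene lists that follow are read against 46.1%. Gene length was not matched, and the presence of a peak near a gene says nothing of its expression.

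Genes of the absorptive cell were often near the regions, and also near regions of any class found in all 3 hormone libraries. The latter were near 26 of 27 genes of nutrient absorption and the brush border and 23 of 24 of bile acid and xenobiotic handling. They were near 22 of 22 genes of metal and phosphate transport, against 61.2% of all protein-coding genes. Of the 27 genes of nutrient absorption and the brush border, 23 had at least 1 of the studied regions (85.2%, 95% Wilson interval 67.5 to 94.1), with a mean of 2.93 per gene. Slc15a1, the apical peptide transporter, had 7 of them beside 1 hormone-only and 2 constitutive regions. Dgat2, which makes triglyceride, had 7 beside 0 and 4, and Slc2a5, the fructose transporter, had 6 and no region of either other class. For the 24 genes of bile acid and xenobiotic handling the count was 22 (91.7%, 74.2 to 97.7), with 6 regions at Abcc2, an apical efflux pump, 6 at Sult2b1, a sulfotransferase, and 4 at Nr1h4, the bile acid receptor. For metal and phosphate transport it was 19 of 22 (86.4%, 66.7 to 95.3). The manganese exporter gene Slc30a10 had 6 beside 1 hormone-only and 5 constitutive regions, the zinc transporter gene Slc39a4 had 6 beside 1 and 2, and the phosphate transporter gene Slc34a3 had 5 beside 1 and 1.

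Regulators and junction genes also had many. Of 23 intestinal transcription factor genes 20 had a region (87.0%, 67.9 to 95.5), with a mean of 3.13 per gene, the highest of the 16 lists. Regions of any class in all 3 hormone libraries were near 21 of the 23. Gata4, which marks the proximal intestine, had 6, Isx, a homeobox gene that restrains vitamin A uptake, had 6 and Elf3, an epithelial ETS factor, had 5. Tight junction and adhesion genes had regions at 15 of 18, among them 6 at Cdh1, which encodes E-cadherin, 5 at Cldn3, a sealing claudin, and 3 at Cdh17, the liver-intestine cadherin. Of the cell cycle and growth control genes 12 of 16 had them, with 7 at Ccnd3, a D-type cyclin, and 4 each at the growth arrest genes Cdkn1a and Gadd45b. AP-1 and immediate early genes had them at 8 of 12 (66.7%, 39.1 to 86.2), with 5 at Fosl2 and 3 each at Fos and Fosl1, and clock genes at 10 of 15 (66.7%, 41.7 to 84.8), with 6 at Dbp, 5 at Bhlhe40 and 4 at Arntl. The list of stem cell and Wnt genes had 11 of 17 (64.7%, 41.3 to 82.7). Axin2, a Wnt target and inhibitor, had 5 and no region of either other class, and Lef1 and Lrig1 had 4 each. With any class in all 3 hormone libraries counted, the tight junction list had 16 of 18 and the cell cycle list 14 of 16. The AP-1 list then had 10 of 12, the clock list 12 of 15 and the stem cell and Wnt list 16 of 17.

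Markers of other cells had fewer regions per gene, and the share of genes with a region lay above 46.1% in 3 of the 5 lists. Goblet and Paneth cell markers had regions at 3 of 10 genes (30.0%, 10.8 to 60.3), with 1 each at Agr2, Atoh1 and Clca3, and neuronal and glial markers at 2 of 10, Snap25 and Syt1 with 1 each. Enteroendocrine and tuft cell markers had them at 7 of 14 (95% interval 26.8 to 73.2%), with 3 at Sct, which encodes secretin, and 2 each at Chga and Gcg. Immune markers had them at 8 of 15 (53.3%), with 3 at Cd3e and 2 at Cd4, and stromal, endothelial and muscle markers at 9 of 15 (60.0%), with 4 at Pecam1, 3 at Pdgfrb and 1 at Acta2. The 95% interval of each of these 5 lists includes 46.1%, and so do those of the AP-1, clock, stem cell and Wnt, calcium transport and vitamin D lists. The intervals of the remaining 6 lists lie above it. The lists were chosen with earlier results of these data known, gene length was not matched, and nearby genes can share a region. The intervals are thus a description, and no test was made of a list or between lists. The mean number of regions per gene was between 0.200 and 0.933 in these 5 lists and between 1.08 and 3.13 in the other 11. Any region found in all 3 hormone libraries was near 10 of 14 enteroendocrine and tuft cell markers and 11 of 15 immune markers. For stromal, endothelial and muscle markers this count was 9 of 15. It was 3 of 10 for goblet and Paneth cell markers and 3 of 10 for neuronal and glial markers, against 61.2% of all protein-coding genes.

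Calcium transport genes had regions at 11 of 17 (64.7%, 41.3 to 82.7), with a mean of 1.53 per gene. With any class in all 3 hormone libraries counted, it was 13 of 17. Cldn15 had 4, beside 2 hormone-only and 2 constitutive regions. Its promoter region is given above, a second lay 40.0 kb upstream (chr5:137402292-137402611, vehicle replicates 1 and 2), another 13.4 kb upstream (chr5:137428974-137429296, vehicle replicate 2) and the last 10.3 kb downstream of the start (chr5:137452555-137453052, vehicle replicate 2). All 4 Cldn15 regions were in vehicle replicate 2 and none in vehicle replicate 3, the deeper library. Itpr1, the intracellular calcium release channel, had 6, of which vehicle replicates 1, 2 and 3 held 1, 4 and 4. It is a long gene, at 338 kb.

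Cldn2, which encodes another cation-pore claudin, had 3 regions. One lay 14.3 kb upstream of its start (chrX:136320832-136321243) at percentiles of 70.1, 73.0 and 76.9 in hormone replicates 1, 2 and 3 and 2.86 in vehicle replicate 2, so it stood near the end of that vehicle list. The calcium pump genes Atp2b1, Atp2b2, Atp2b3 and Atp2b4 had 2, 1, 3 and 1, that of Atp2b4 in an intron of Lax1. The region of Atp2b1, the basolateral pump of enterocytes, that stood higher lay 49.95 kb upstream of its start (chr10:98327658-98328022), at 89.8, 94.7 and 97.4 with hormone and 69.1 and 92.8 in vehicle replicates 2 and 3. Calb1, a calcium-buffering calbindin, and Cacna1d, a voltage-gated channel, had 2 each, and Casr, the calcium-sensing receptor, had 1. Both Calb1 regions lay in introns of the neighbouring gene Decr1, 44.6 and 61.9 kb downstream of the Calb1 start. One Cacna1d region lay in an intron of Chdh, 473 kb downstream of the Cacna1d start. S100g, which encodes calbindin-D9k, had 1 beside 1 hormone-only and 2 constitutive regions. It was 30.0 kb upstream, in an intron of Ctps2 (chrX:159432305-159432747), at 61.6, 48.8 and 59.0 with hormone and 68.6 in vehicle replicate 3. The apical channel gene Trpv6 had no region of this class within 50 kb.

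Vitamin D genes had regions at 5 of 12 (41.7%, 19.3 to 68.0), close to the background. With any class in all 3 hormone libraries counted, it was 7 of 12. Vdr itself had 3, beside 1 hormone-only and 2 constitutive regions. They were 7.60 kb upstream of its start (chr15:97748466-97748837), in an intron 11.6 kb downstream (chr15:97729317-97729672) and in an intron 29 kb downstream (chr15:97711879-97712219). The upstream Vdr region stood at 89.1, 91.2 and 93.5 in hormone replicates 1, 2 and 3 and at 91.8 and 94.0 in vehicle replicates 2 and 3. Vehicle replicate 1 had no peak there. Its percentiles were thus similar in the lists that held it, which differ in length. The Vdr intron region at 11.6 kb stood at 87.5, 94.4 and 92.1 with hormone and at 75.2 and 92.1 in vehicle replicates 1 and 3. Both held a GATA motif, and none of the 3 held a DR3 with fewer than 2 mismatches.

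Rxra, a partner of VDR, had 5 regions, from 49.6 kb upstream to 83.5 kb downstream of its start. The Rxra region 14.6 kb upstream (chr2:27517188-27517519) stood at 77.0, 65.8 and 72.9 with hormone and 59.9 and 82.6 in vehicle replicates 2 and 3. Cyp27a1, a sterol and vitamin D hydroxylase, had 3, of which 2 lay in exons of the neighbouring gene Ttll4. Rxrb, another RXR, and Gc, the plasma carrier of vitamin D, had 1 each. That of Rxrb lay within another gene, H2-K1, at a promoter 32.0 kb upstream of the Rxrb start. Cyp24a1, which inactivates the hormone, had no region of this class within 50 kb. Of the 9 DR3 elements with at most 1 mismatch at these calcium and vitamin D genes, 8 are printed in the same way. They are named by the list gene whose body lies within 50 kb, which need not have the nearest start. The second Cacna1d site lay in the region within Chdh given above. The set with 1 mismatch was chosen after its values were seen.
Cldn15, chr5:137442126-137442154, plus strand: tggctgaGGGAGACCAGGTTCAccgggtg
Cldn15, chr5:137452730-137452758, minus strand: agtgctgGGGTCACAGGGGTGCacgatta
Cldn2, chrX:136321049-136321077, minus strand: gacctacAGTTCAGAGAGTTCAtcgaatt
Atp2b1, chr10:98334925-98334953, plus strand: tgatcagGGGTCAACAGGTTCTtgttttt
Cacna1d, chr14:31292589-31292617, plus strand: ccccgccAGGTGAGAGAGGTCTccggact
Cacna1d, chr14:30831409-30831437, plus strand: cagggagGAGTGACCCAGTTGAacagaaa
Rxra, chr2:27517352-27517380, minus strand: ggcctgtAGTTCTCTGAGTTCAaagtcaa
Rxra, chr2:27574104-27574132, plus strand: cagagatAGGTAACCAGGGTGAgccttga
Of the 9, only the Cldn2 element had 0 mismatches, with AGTTCA on both sides of its spacer. That at the Cldn15 promoter lay 25 bp from the region centre, and those of Atp2b1 and of the region 14.6 kb upstream of Rxra lay 7 and 9 bp from it. The remaining elements lay 9 to 86 bp from their centres.

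Genes with the most regions within 50 kb were mainly long. Gm20388 had 41 and Fgfr2 21, but their gene models in this annotation cover 4435 and 3009 kb and so take in many neighbouring genes. Lass6, a ceramide synthase gene, had 11 beside 0 hormone-only and 2 constitutive regions, and Mical2, which encodes an actin oxidase, had 11 beside 1 and 1. Dock9, an exchange factor for Cdc42, had 11 beside 2 and 3, Shroom3, which shapes the apical cell surface, had 11 beside 7 and 2, and Arhgap26, a GTPase-activating protein gene, had 11 beside 5 and 8. Itpk1, an inositol phosphate kinase gene, and Lpp, which encodes a focal adhesion protein, had 10 each. These models ran from 129 kb for Mical2 to 775 kb for Arhgap26. The exception was Cml2, an acetyltransferase-like gene with a model of 3.74 kb, with 9 regions beside 0 hormone-only and 1 constitutive. In all, 9 genes had 10 or more.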

How the data were processed

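Per the submitters' processing notes, reads were aligned to mm9 with Bowtie and peaks were called with HOMER; versions are not given in the sources used here. Peaks of each library were called separately against 1 input, per the file headers. The headers give a false discovery rate of 0.001, 4-fold enrichment over the input and over the flanking 10 kb, a Poisson threshold of 0.0001, and clonal filtering at 2. The deposited values used here are the start and end positions of peaks, in bases and with 1 width per library, plus tag totals in the headers. The deposited score is the same for every peak and was not used. No tag counts per peak were used, so presence in a list and position in it stand in for occupancy.

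Peaks on chromosomes 1 to 19 and X were merged at an overlap of 1 bp or more. The members and lists were chosen with earlier results of these data known. A region's centre is the mean of its peak centres over the libraries that hold it, and where a library had several peaks in a region the first in its list was used. The gene named for a region is the protein-coding gene with the nearest outermost start, from GENCODE mouse version M1 on the mm9 assembly. Regions counted for gene lists and for the genes with most regions are instead given under each gene whose body lies within 50 kb. In these libraries 0 peaks ran past a chromosome end. Motifs were searched on both strands within 100 bp of the centre, and again in windows 5 kb to the right. Shares carry 95% Wilson intervals and their differences Newcombe intervals, for counting error only. The exact permutation test was over 6 libraries, and p describes the spread between libraries that may not be separate mice. Merging, motif search and the test were tested on simulated data. Tools were Python 3.11.15, numpy 2.4.6, pandas 2.3.3, scipy 1.17.1, pysam 0.24.0 and matplotlib 3.10.9.

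Named regions were the 10 highest by mean hormone percentile, the 3 highest of each vehicle combination, the 5 highest promoters, the 3 lowest, those of the calcium and vitamin D lists, up to 3 genes of every other list (16 lists, 267 of 268 symbols found) and the 10 genes with most regions. Sites for printing were the 12 highest with 0 mismatches, leaving out chromosome 18. Some items that these rules chose are not reported here. Alternatives were stricter merging, lists of equal length, leaving out each library, other windows, mismatches and distances, and a replicate block. With a library left out, the rule and the classes were set anew on the libraries left. The intervals between classes under other settings were added after the values were seen.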

Additional observations from a re-analysis of the deposited data

How the results depend on the processing

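Over the 8 other settings of peak merging and library choice, the differences between classes in promoter, DR3, GATA, AP-1 and DR1 share kept their direction, with 3 exceptions. The DR3 difference from hormone-only regions was 0.12 points with lists of equal length and 0.19 without vehicle replicate 2, and both intervals include 0. The AP-1 difference from constitutive regions was 1.66 points without hormone replicate 1, with an interval of 0.432 to 2.84, and 0.29 without vehicle replicate 2, with an interval that includes 0. The DR1 difference from constitutive regions was -0.11 points and went up to 0.81 points, without vehicle replicate 3, with intervals that include 0 in all settings. Some differences kept their direction but had an interval that includes 0. For DR1 against hormone-only regions this held with lists of equal length (-0.67 to 4.12). It also held without vehicle replicate 1 (-0.18 to 2.11) and without vehicle replicate 2 (-0.35 to 1.81). For AP-1 against hormone-only regions it held with lists of equal length (-1.04 to 4.19). The number of regions was 2799 with lists of equal length (8756 peaks each) and 5399 to 11499 with 1 library left out, lowest without vehicle replicate 3. The share in vehicle replicate 3 alone was 31.3% with peaks joined only when centres lay within 100 bp and 24.3% with lists of equal length. It was 32.1 to 84.0% with 1 library left out, and without vehicle replicate 3 it has no value. With a vehicle library left out, a region needed a vehicle peak in exactly 1 of the other 2. Regions of vehicle replicates 2 and 3 thus count under replicate 3 alone once vehicle replicate 2 is left out. The promoter share was 22.5% with lists of equal length, 11.9% within 0.5 kb, 34.6% within 5 kb, 14.3% with protein-coding starts only, and 14.7 to 16.8% with 1 library left out. The DR3 share was 20.3% with centres within 100 bp, 3.02% at 0 and 62.6% at 2 mismatches, 12.8% within 50 bp, 22.9% within 150 bp, and 16.7 to 19.7% with 1 library left out. The share of all 267 list genes with a region was 69.3%. It was 42.3% with lists of equal length (21.9% of all genes), 48.3% within 10 kb (24.1%), 80.5% within 100 kb (60.2%), 56.6% by nearest start (23.98%), and 56.9 to 75.3% with 1 library left out. Values with 1 library left out come from the rule and classes set anew on the libraries left, and so from other sets of regions. The cause of the other shifts was not tested, although wider windows and looser matches can only add regions. The difference in DR3 distance stayed negative, at -5.17 to -17.3 bp. The presence of a peak in each merged region, less its group mean, was correlated between hormone and vehicle libraries. Same-numbered libraries had correlations of -0.113, 0.000944 and -0.184, and the other pairs -0.116 to 0.166. These values cannot show whether same-numbered libraries were handled together. With a replicate block the difference in DR3 distance was -9.33 bp (exact permutation p = 0.5, smallest possible 0.25).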
